A study of Homo sapiens with 33 samples.

Results

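The comparison follows gonadal differentiation of human embryonic stem cells without FOXL2 induction from day 6 to day 8. Its members are the 3 libraries of the non-induced control (CTRL) at day 8 and the 3 CTRL libraries at day 6, chosen by their labels, so 6 of the 33 RNA-seq libraries of the series, and the comparison runs across all genes. H9 is an established human embryonic stem cell line, and the cells here, H9-DDdCas9VP192-FOXL2 clone 24, are a single clone of it. Every group carries the same genotype: the activator DDdCas9VP192, a Cas9 that does not cut fused to a transcriptional activation domain and to a destabilising domain, together with guide RNAs to the FOXL2 promoter. Doxycycline (DOX) switches the activator on and trimethoprim (TMP) keeps the protein from being degraded. All wells were taken through the same first 4 days on collagen, in intermediate mesoderm (IM) medium with activin A, the WNT pathway activator CHIR99021, dorsomorphin and a ROCK inhibitor, then with BMP7 and CHIR99021, then with dorsomorphin and CHIR99021. From day 4 the CTRL cells stayed in IM medium alone, while the induced cells (IND) received DOX and TMP. The IND libraries of day 6 and day 8, 3 each, serve here for a test of whether the same step differed under induction. Day 4, the start of both arms, and CTRL at day 10, day 12 and day 14 are given as levels only.

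In the embryo, the gonad forms where the coelomic epithelium, the lining of the body cavity, thickens over the intermediate mesoderm. The transcription factors WT1, GATA4 and LHX9 mark this epithelium and the early bipotential gonad, in which RSPO1 and WNT4 act on the ovarian side and SOX9 and FGF9 on the testicular side. The same cavity lining gives rise to mesothelium and to mesenchymal cells that make connective tissue and smooth muscle. Cultures made from pluripotent cells can also hold neural crest, the migratory population that forms peripheral neurons and glia in the embryo.

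Of 58735 genes in the table, 34825 had at least 1 count in the 6 libraries and 19154 passed the filter on low counts and were tested. With the quasi-likelihood test of edgeR and an adjusted p under 0.05, 3176 genes differed between the days, 16.6% of those tested, of which 1661 rose (8.67%) and 1515 fell (7.91%). The rises were larger than the falls: the median log2 fold change was 0.74 among the genes that rose and -0.46 among those that fell, and 592 genes rose against 149 that fell by at least 1 on the log2 scale. Over all genes tested the median log2 fold change was -0.001. Of 1277 genes that the deposited annotation classes as transcription factors, 146 rose (11.4%) and 79 fell (6.19%). Without CTRL day 8 replicate 1, or without CTRL day 8 replicate 3, 1659 genes were called.

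The 6 libraries held between 34195427 and 44016987 counts, and a gene with 3 counts stood at 0.0666 to 0.0907 CPM (counts scaled to a common library size, with TMM), below which no level is read; these floors cover counting error only. Within a day the libraries correlated at 0.9931 or more on log2 CPM, and the first principal component, with 55.7% of the variance, separated the days. The second component, with 16.6%, set CTRL day 6 replicate 1 (21.8) and CTRL day 6 replicate 2 (-18.5) furthest apart, and results that rest on either are given without it. The 3 libraries of a day are technical replicates of 1 biological replicate, so p-values cover the spread between these libraries only. FOXL2, which no agent switched on in CTRL, stood between 0.0222 and 0.319 CPM in the 6 libraries, against at least 247 CPM in the IND libraries of the same days. In bulk RNA, a change in the number of cells of a type and a change in RNA per cell cannot be told apart. CPM are not scaled to gene length, so levels are compared between days and not between genes.

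The coelomic epithelium and mesothelium list held 20 genes, of which 19 were tested, with a median log2 fold change of 0.50. Rises numbered 8 (42.1%, against 8.67% of all genes) and falls 4 (21.1%, against 7.91%). TBX18 (chr6:84687351-84764519, GRCh38), a transcription factor of mesothelium and urogenital mesenchyme, stood at 17.0, 17.1 and 15.6 CPM at day 6 and at 58.2, 75.0 and 72.3 CPM at day 8. It rose by 2.06 on the log2 scale (SE 0.115, adjusted p = 2.16e-08). WT1 (chr11:32387775-32435630), required for the gonadal ridge and for mesothelium, went from 23.7, 23.6 and 25.3 CPM to 70.1, 82.0 and 90.9 CPM. The groups did not overlap in either gene, and WT1 rose 3.37-fold (log2 1.75, SE 0.108, adjusted p = 4.53e-08). BNC1, a zinc finger protein of mesothelium, rose from 125 ± 9.22 to 245 ± 22.0 CPM (SD, n = 3; log2 0.98). UPK3B, a surface protein that marks mature mesothelium, was low and rose from 2.75, 1.54 and 1.23 CPM to 5.73, 4.60 and 6.98 CPM (log2 1.67, SE 0.277). MSLN, mesothelin, stood at 0.505 to 0.968 CPM at day 6 and 1.33 to 1.95 CPM at day 8, and its call (adjusted p = 0.0153) was lost without CTRL day 6 replicate 3 or CTRL day 8 replicate 3 (adjusted p = 0.0661 to 0.0732). PODXL, a sialomucin of podocytes and cavity linings, rose 1.7-fold from 884, 795 and 895 CPM to 1395, 1391 and 1541 CPM, among the largest gains in CPM of any gene.

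The 4 members of that list that fell were all keratins of simple epithelia, namely KRT19, KRT8, KRT18 and KRT7. KRT19 stood at 1056, 1020 and 1001 CPM at day 6 and at 499, 695 and 589 CPM at day 8, with no overlap (log2 -0.77, SE 0.106, adjusted p = 0.000123). KRT8 fell less, from 3199, 2902 and 2701 CPM to 1823, 2574 and 2269 CPM (log2 -0.39), and lost its call without CTRL day 6 replicate 1, CTRL day 8 replicate 1 or CTRL day 8 replicate 3 (adjusted p up to 0.184). KRT18 and KRT7 lie outside the rule for named genes and are given because they complete the count. Without CTRL day 8 replicate 1 the list held 1 gene that fell, and without CTRL day 6 replicate 1 or CTRL day 8 replicate 3 it held 2. In 1 fit over all 33 libraries 6 of the list rose and 0 fell, and KRT19 was not called (adjusted p = 0.0686). In the main fit, epithelial keratins and mesothelial transcription factors of this list moved in opposite directions between day 6 and day 8.

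Among 18 bipotential gonad genes, 16 were tested (median log2 fold change 0.15). In this list 3 rose and 3 fell, 18.8% each, against 8.67% and 7.91% of all genes. GATA4, WT1 and LHX9 were those that rose. GATA4, a zinc finger factor needed for the genital ridge to thicken, stood at 233, 250 and 174 CPM at day 6 and 303, 422 and 368 CPM at day 8. It rose by 0.75 (SE 0.144, adjusted p = 0.00405), but not without CTRL day 6 replicate 1 (adjusted p = 0.0813). LHX9, a LIM homeobox factor of the gonadal epithelium, had 4 counts over the 3 day 6 libraries and 70 over the 3 day 8 libraries. Its ratio, corrected for library size, was 16.6 with a 95% counting interval of 6.19 to 62.5, so its level at day 8 (0.333, 0.890 and 0.481 CPM) was above the floor but low. GATA2 fell from 11.0, 11.9 and 9.44 CPM to 6.33, 6.21 and 5.70 CPM (log2 -0.81, SE 0.154), and CBX2, a Polycomb protein of gonad development, from 210 ± 32.1 to 148 ± 7.24 CPM (log2 -0.49). NR2F1, the last of the 3 that fell, lost its call in 5 of the 6 fits that leave out a library, the exception being that without CTRL day 6 replicate 2. NR5A1, the nuclear receptor that later drives steroid hormone synthesis, was too low to be tested.

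The supporting gonad and granulosa list was mixed, with 16 of 22 genes tested (median log2 fold change -0.18). Rises numbered 3 (18.8%, against 8.67% of all genes) and falls 6 (37.5%, against 7.91%). RSPO1 (chr1:37611350-37634923), the secreted WNT potentiator of the ovarian pathway, stood at 4.81, 2.50 and 3.99 CPM at day 6 and at 19.3, 18.6 and 22.8 CPM at day 8. That is a 5.43-fold rise (log2 2.44, SE 0.196, adjusted p = 8.47e-07), with every day 8 library above every day 6 library. INHBA, the subunit of activin A and inhibin A, rose from 0.575, 0.639 and 0.601 CPM to 2.62, 3.15 and 3.42 CPM (log2 2.35, SE 0.274). LGR5, an RSPO receptor that marks early supporting cells and several stem cells, moved the other way, from 9.71, 12.7 and 9.73 CPM to 3.29, 3.78 and 3.00 CPM (log2 -1.66, SE 0.177, adjusted p = 1.27e-05). The ligand RSPO1 rose while this receptor fell, both without overlap between the days. BMP2, IRX3 and IRX5, named among granulosa genes, also fell, by 0.88, 1.01 and 0.83 on the log2 scale. The calls of IRX3 and IRX5 were lost without CTRL day 6 replicate 3 and without CTRL day 8 replicate 1, among other libraries for IRX3. Without CTRL day 6 replicate 3, or without CTRL day 8 replicate 1, 3 members of the list fell. Of the 7 testis pathway genes tested, CYP26B1, FGF9 and SOX8 rose (42.9%, against 8.67% of all genes) and SOX9 fell (14.3%, against 7.91%). SOX9, the transcription factor that sets the Sertoli cell fate, stood at 26.5, 17.5 and 27.2 CPM and then at 15.98, 13.9 and 12.9 CPM (log2 -0.72, SE 0.155, adjusted p = 0.00471), while its partner ligand FGF9 rose from 2.00 ± 0.286 to 4.17 ± 0.273 CPM (log2 1.07).

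**Figure D1:**
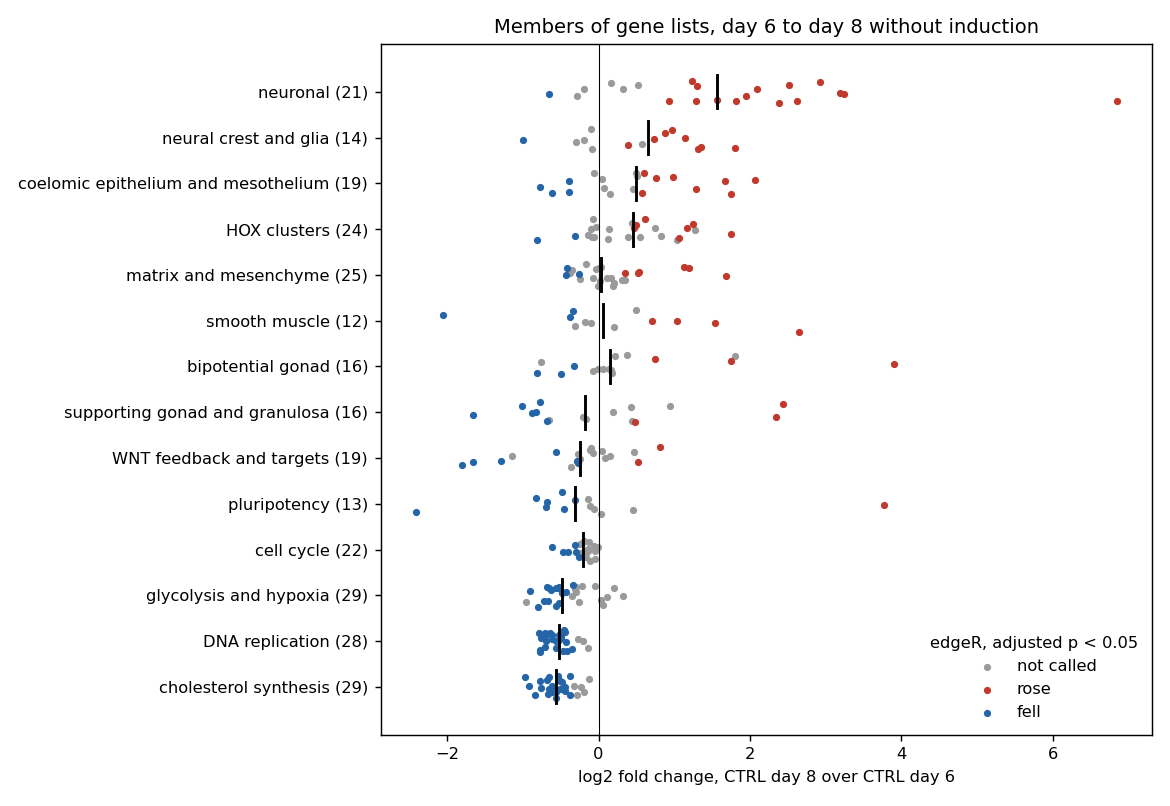
Members of 14 gene lists by log2 fold change of CTRL day 8 over CTRL day 6 (x axis); each point is a tested gene, red if it rose, blue if it fell and grey if it was not called, the black bar is the list's median, and the number in brackets is how many were tested. All 28 DNA replication and all 29 cholesterol synthesis points lie left of 0, and 18 of 21 neuronal points lie right of it. The point furthest right among bipotential gonad genes, LHX9, rests on 4 counts at day 6.

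Neuronal genes rose in most members. All 21 were tested, 15 rose (71.4%, against 8.67% of all genes) and 1 fell, and the median log2 fold change was 1.56. NEUROG1, a proneural factor of sensory neurons, stood at 1.06, 0.373 and 0.721 CPM at day 6 and at 5.84, 3.71 and 6.61 CPM at day 8, with no overlap (log2 2.93, SE 0.328, adjusted p = 2.23e-05). POU4F1, a later factor of these neurons, rose by 3.20, and NEUROD1, a factor of neuronal differentiation, by 3.25 from 0.0240 to 0.151 CPM at day 6. STMN2, a microtubule protein of growing axons, rose from 1.66, 1.38 and 1.95 CPM to 8.83, 5.10 and 7.22 CPM (log2 2.09, SE 0.236), and SYT4, a vesicle protein, by 2.51. All of these stayed called when any 1 library was left out, and the list's count then lay between 13 and 15. The member that fell was GAP43, a protein of growing axons, from 51.4, 41.2 and 45.0 CPM to 23.2, 29.7 and 33.6 CPM (log2 -0.66), named after its value was seen. TUBB3, the neuronal tubulin, stood at 0.399 to 0.514 CPM at day 6 and 0.355 to 0.802 CPM at day 8 (adjusted p = 0.485), and 48.1% of its exon bases also belong to another annotated gene. The summed level of the list was 111 to 135 CPM at day 6 and 196 to 263 CPM at day 8.

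All 14 neural crest and glia genes were tested (median 0.65). In this list 8 rose (57.1%, against 8.67% of all genes) and 1 fell (7.14%, against 7.91%). TFAP2B, an AP-2 factor of neural crest and sympathetic precursors, stood at 14.3, 8.81 and 13.1 CPM at day 6 and at 50.3, 28.5 and 46.0 CPM at day 8 (log2 1.80, SE 0.255, adjusted p = 0.0028). TFAP2A, a related AP-2 factor of early crest, rose from 6.53, 5.72 and 5.96 CPM to 14.3, 8.54 and 12.4 CPM (log2 0.97, SE 0.182, adjusted p = 0.00178). SOX10, which keeps crest cells multipotent and then directs glia, stood at 36.8, 20.2 and 30.4 CPM and then at 78.1, 52.3 and 85.3 CPM. Its rise (log2 1.32, adjusted p = 0.0247) was lost without CTRL day 6 replicate 1 or CTRL day 6 replicate 3 (adjusted p = 0.0526 to 0.0826). FOXD3, an early crest factor, fell from 28.1, 17.6 and 27.4 CPM to 13.3, 7.84 and 15.0 CPM (log2 -1.0036, adjusted p = 0.0366), again not without CTRL day 6 replicate 1, CTRL day 6 replicate 3 or CTRL day 8 replicate 1 (adjusted p up to 0.154). In these genes replicate 2 was the lowest library on both days, and the spread within a day was wide. The list summed to 321 to 450 CPM at day 6 and 510 to 763 CPM at day 8, and without CTRL day 6 replicate 1 its count of genes that rose was 5. Whether crest and neuronal cells took part in the changes of other gene groups was not tested.

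**Figure D2:**
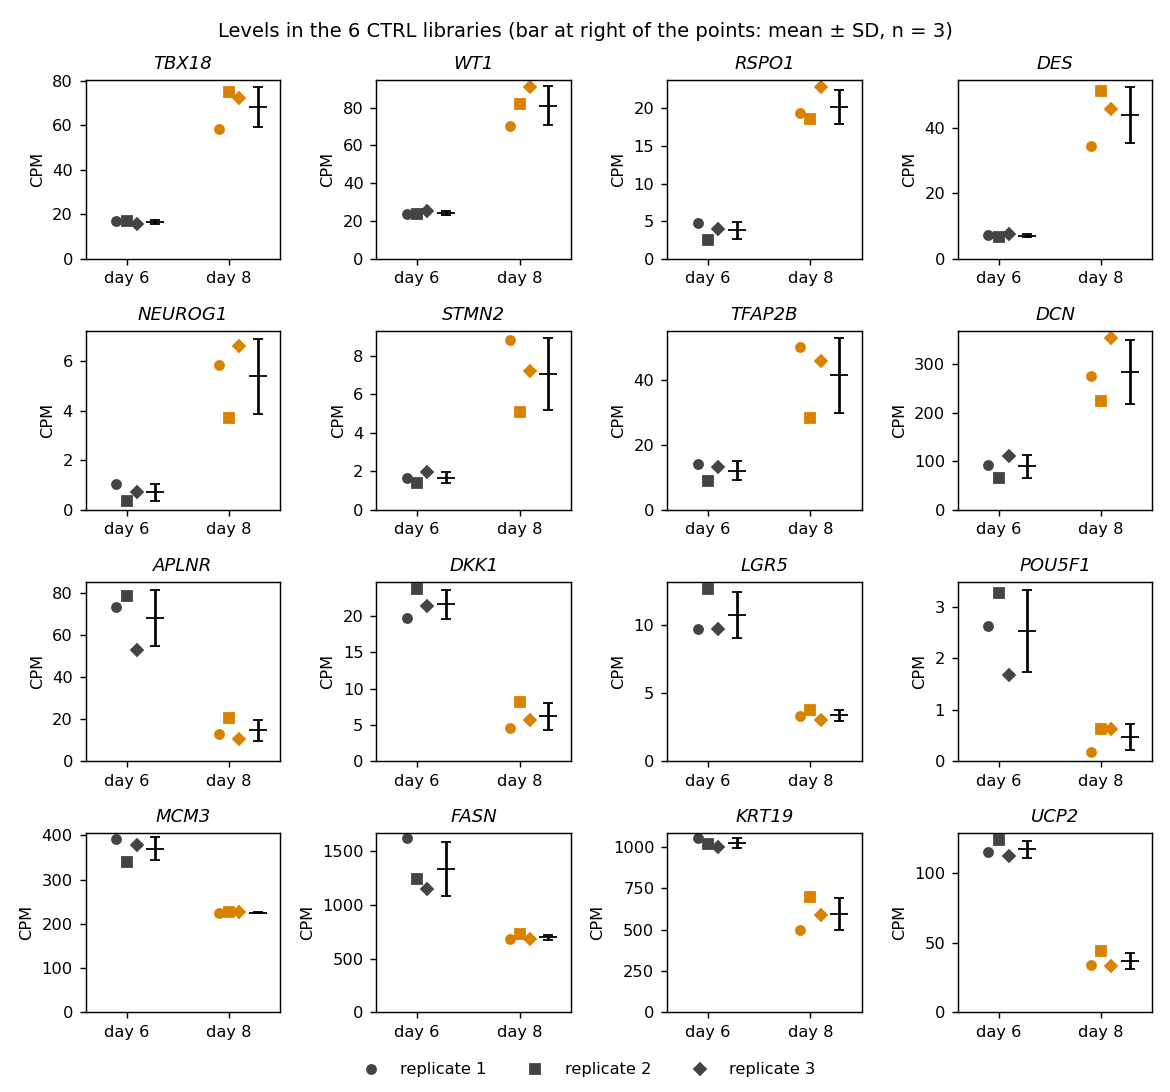
CPM of 16 genes (y axis, from 0) in the 3 CTRL libraries of day 6 and the 3 of day 8 (x axis); the symbol gives the replicate number, and the bar to the right is the mean ± SD. The 16 genes were picked among called genes, some by the rule that asked for no overlap, so the separation of the days in these panels reflects that choice. In TFAP2B and DCN replicate 2 is the lowest library of both days.

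The 12 largest rises were taken among called genes with an average log2 CPM of 1 or more and no overlap between the days, so their separation was fixed by that choice. NELL1 (chr11:20669551-21575681), a secreted protein linked to bone formation, stood at 0.363, 0.506 and 0.625 CPM and then at 16.1, 14.5 and 21.1 CPM, a 34.2-fold rise (log2 5.10, SE 0.23, adjusted p = 3.27e-09). TMEM151A, a membrane protein, rose from 0.0907, 0.373 and 0.120 CPM to 5.53, 8.16 and 8.72 CPM (log2 5.24, SE 0.365). SPRR2F, a small proline-rich protein of epithelia, rose by 4.92, with the limit that near-identical members of its family can share reads. COL8A2, a short-chain collagen, rose by 4.24, and PDLIM3, a protein of the actin cytoskeleton, from 1.94, 2.02 and 1.27 CPM to 17.4, 25.3 and 20.2 CPM (log2 3.60, SE 0.200). ARHGAP22, a GTPase activating protein, stood at 10.5, 7.64 and 6.44 CPM and then 53.1, 72.9 and 72.3 CPM (log2 3.03, SE 0.183). None of these 6 genes lost its call when 1 library was left out. SLC17A8, a vesicular glutamate transporter, differed from them: CTRL day 8 replicate 2 (11.1 CPM) stood far above CTRL day 8 replicate 1 and 3 (2.71 and 3.32 CPM). Its call (log2 4.57, adjusted p = 0.0174) was lost without each of the 3 day 6 libraries (adjusted p = 0.0501 to 0.0803). MOG, SLC34A2, LONRF2, IL6R and PKHD1L1 complete the 12, with rises of 3.08 to 3.95 on the log2 scale.

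The 12 largest falls under the same choice were smaller, and falls of less abundant genes such as WNT8A and POU5F1, described with their groups, lie outside it. APLNR (chr11:57233577-57237314), the apelin receptor of early mesoderm and cardiac progenitors, stood at 73.1, 78.4 and 53.04 CPM at day 6 and at 12.7, 20.4 and 10.7 CPM at day 8. It fell by 2.21 on the log2 scale, that is 4.63-fold (SE 0.272, adjusted p = 0.00249). TCF15, a factor of paraxial mesoderm, fell from 8.35, 5.06 and 9.66 CPM to 1.89, 2.14 and 1.85 CPM (log2 -1.96, SE 0.235). XIRP1, an actin-binding protein of striated muscle, fell by 2.09, and MYLK3, the cardiac myosin light chain kinase, by 1.64. UCP2, a mitochondrial inner membrane carrier, stood at 115, 124 and 112 CPM and then at 33.6, 43.8 and 33.2 CPM (log2 -1.65, SE 0.112, adjusted p = 1.31e-07). CA4, VAX2, CLDN2, VRTN and the signal recognition particle RNA pseudogene RN7SL493P fell by 1.56 to 1.93. DKK1 and LGR5, described with their groups, complete the 12.

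DKK1 (chr10:52314296-52318042), a secreted WNT antagonist that WNT signalling itself induces, stood at 19.7, 23.8 and 21.4 CPM at day 6 and at 4.55, 8.21 and 5.70 CPM at day 8 (log2 -1.80, SE 0.179, adjusted p = 7.91e-06). In the list of WNT feedback genes and targets, 19 of 21 were tested. Of these, 6 fell (31.6%, against 7.91% of all genes) and 2 rose (10.5%, close to the 8.67% of all genes). The median log2 fold change was -0.25, and 3 fell without CTRL day 8 replicate 1 or CTRL day 8 replicate 3. CDX1, a caudal factor of the primitive streak, fell from 8.59, 5.69 and 9.40 CPM to 2.84, 3.20 and 3.58 CPM (log2 -1.29, SE 0.207). AXIN2, the usual reporter of WNT activity, stood at 67.4, 46.5 and 61.6 CPM and then at 58.2, 50.4 and 57.4 CPM, with overlapping groups (log2 -0.07, SE 0.123, adjusted p = 0.765). NKD2, a feedback inhibitor, rose by 0.82 from 6.08 to 8.01 CPM at day 6. Among 38 WNT ligands, receptors and antagonists tested, 4 rose (10.5%) and 3 fell (7.89%), close to the 8.67% and 7.91% of all genes (median 0.08), and 2 rose without CTRL day 8 replicate 1. The ligand WNT8A, of the primitive streak, fell from 1.36, 1.596 and 2.14 CPM to 0.178, 0.241 and 0.161 CPM (log2 -3.10, SE 0.396), and WNT7B rose from 0.559 to 1.15 CPM up to 2.06 to 2.54 CPM (log2 1.36). WNT1 stood at 20.2 to 23.3 CPM at day 6 and 23.1 to 24.9 CPM at day 8 and was not called (adjusted p = 0.379).

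Pluripotency genes were mostly lower at day 8 (median log2 fold change -0.31). With 13 tested, 7 fell (53.8%, against 7.91% of all genes) and 1 rose (7.69%, against 8.67%). POU5F1, the core pluripotency factor OCT4, stood at 2.63, 3.27 and 1.68 CPM at day 6 and at 0.178, 0.626 and 0.615 CPM at day 8 (log2 -2.41, SE 0.407, adjusted p = 0.000749), with the limit that its pseudogenes can share reads. LIN28A, an RNA-binding protein that blocks let-7 maturation, was abundant and fell from 871, 932 and 899 CPM to 480, 533 and 500 CPM (log2 -0.82, SE 0.0835). SALL4, ZFP42 and DNMT3B fell by 0.69, 0.69 and 0.48. In 1 fit over all 33 libraries 4 of the list fell, and LIN28A and ZFP42 were not called (adjusted p = 0.247 and 0.182). The exception was UTF1, a chromatin protein of pluripotent cells, which rose from 0.0798 to 0.121 CPM at day 6 to 0.710, 1.95 and 1.44 CPM (log2 3.77, SE 0.527, adjusted p = 0.000152). NANOG stood at 0 to 0.289 CPM in the 6 libraries and was not tested. The mesoderm lists were mixed. HAND1 and MSX1 of lateral plate mesoderm were lower (log2 -0.52 and -0.51). Neither was called in the fit over all 33 libraries (adjusted p = 0.072 and 0.147), where 0 lateral plate genes fell. TBX5, a factor of heart and forelimb, was higher, from 17.5, 24.2 and 18.96 CPM to 42.5, 44.5 and 46.8 CPM (log2 1.16, SE 0.120). Of 15 intermediate mesoderm genes tested, LHX1 and SALL1 fell (log2 -1.11 and -0.64) and WT1 and ITGA8 rose. ITGA8 was not called without CTRL day 8 replicate 3 (adjusted p = 0.0512). SALL1 and ITGA8 were also not called in the fit over all 33 libraries (adjusted p = 0.136 and 0.179). PAX2 and OSR1 stood at similar levels on both days, OSR1 at 4.13 to 7.21 and then 4.28 to 7.03 CPM, and neither was called (adjusted p = 0.842 and 0.626).

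DNA replication genes fell together. All 28 were tested and had lower fitted values at day 8, 25 fell (89.3%, against 7.91% of all genes), none rose, and the median log2 fold change was -0.52. When any 1 library was left out, 22 to 25 fell. MCM3 (chr6:52264009-52284881), a subunit of the replicative helicase, stood at 391, 341 and 378 CPM at day 6 and at 224, 226 and 227 CPM at day 8. It fell 1.63-fold (log2 -0.70, SE 0.0864, adjusted p = 4.68e-05). UHRF1, which reads hemimethylated DNA at the replication fork, fell from 160, 117 and 132 CPM to 80.8, 78.2 and 74.8 CPM (log2 -0.79, SE 0.109). GINS2, CDC45 and CDC6, which load or complete the helicase, fell by 0.78, 0.78 and 0.75. RFC5, CCNE2 and E2F1, named because they complete the count, were the 3 not called. The mitotic genes of the cell cycle list moved less, with all 22 fitted values lower at day 8 and a median of -0.20. In this list 6 fell (27.3%, against 7.91% of all genes) and 16 were not called. MKI67, the proliferation antigen, stood at 273, 248 and 246 CPM and then at 245, 205 and 214 CPM (log2 -0.19, adjusted p = 0.184), with day 8 libraries below day 6 libraries by little. MYBL2, an activator of mitotic genes, fell from 251, 209 and 215 CPM to 139, 150 and 148 CPM (log2 -0.62, SE 0.0943). The count of 6 depended on single libraries, with 13 without CTRL day 6 replicate 1, 3 without CTRL day 8 replicate 2 and 2 without CTRL day 8 replicate 3. CDKN2B, an inhibitor of the CDK4 and CDK6 kinases that TGF-beta induces, was the 1 of 8 kinase inhibitors that rose, from 5.38, 4.34 and 4.49 CPM to 12.9, 19.95 and 21.3 CPM (log2 1.94, SE 0.185, adjusted p = 4.64e-06).

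E2F factors switch on replication genes at the start of S phase, so the 250 bases before the start of each list member were searched for TTTCCCGC or TTTGGCGC, core forms of the E2F site, on both strands. RefSeq promoters (GRCh38.p14) were matched for 24 of the 28 genes, and 12 of these genes held a match in at least 1 promoter. Counted by single promoter, 677 of all 35093 held it (1.93%), so these shares have different units. By call, 11 of the 22 matched genes that fell and 1 of the 2 others held it. The promoters of UHRF1 (chr19:4909251-4909500, plus strand), GINS2 (chr16:85688955-85689204, minus strand) and MCM3 (chr6:52284743-52284992, minus strand) are shown because these 3 had the largest falls among the members that held the match. CDC45 and CDC6 fell by more than MCM3 and their promoters held none. Each is printed in the direction of its gene, with the match in capitals.
UHRF1: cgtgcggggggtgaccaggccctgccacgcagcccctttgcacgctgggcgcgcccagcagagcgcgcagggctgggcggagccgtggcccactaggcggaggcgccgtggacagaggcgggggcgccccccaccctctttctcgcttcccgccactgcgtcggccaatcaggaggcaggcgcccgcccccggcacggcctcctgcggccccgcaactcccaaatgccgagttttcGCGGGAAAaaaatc
GINS2: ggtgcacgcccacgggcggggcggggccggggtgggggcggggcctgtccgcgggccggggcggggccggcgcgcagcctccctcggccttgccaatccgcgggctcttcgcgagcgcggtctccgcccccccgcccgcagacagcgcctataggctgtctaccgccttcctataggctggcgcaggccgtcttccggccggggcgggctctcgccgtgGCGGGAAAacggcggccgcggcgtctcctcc
MCM3: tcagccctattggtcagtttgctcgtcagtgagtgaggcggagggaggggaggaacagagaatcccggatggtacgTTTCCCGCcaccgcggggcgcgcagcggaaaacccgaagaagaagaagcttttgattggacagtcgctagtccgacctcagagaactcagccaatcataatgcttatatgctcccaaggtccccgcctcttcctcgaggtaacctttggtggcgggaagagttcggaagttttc
The match begins 14, 31 and 174 bases before the start of UHRF1, GINS2 and MCM3, and lies on the opposite strand in the former pair. A match describes letters and not the binding of a factor.

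Genes of cholesterol and fatty acid synthesis fell to a similar extent. All 29 genes were tested and had lower fitted values at day 8 (median log2 fold change -0.56). Of these, 24 fell (82.8%, against 7.91% of all genes) and none rose (against 8.67%). When any 1 library was left out, 20 to 24 fell. HMGCS1, an early enzyme of cholesterol synthesis, stood at 208, 238 and 258 CPM at day 6 and at 156, 161 and 148 CPM at day 8 (log2 -0.58, SE 0.0934, adjusted p = 0.000508). INSIG1, which holds the sterol sensor in the endoplasmic reticulum, fell from 75.3, 87.5 and 88.4 CPM to 47.3, 51.5 and 48.6 CPM (log2 -0.76, SE 0.0944). The synthesis enzyme and the feedback protein fell side by side, both without overlap between the days. FASN, fatty acid synthase, had one of the largest losses in CPM of all genes, from 1622, 1241 and 1149 CPM to 687, 725 and 686 CPM (log2 -0.92, SE 0.113, adjusted p = 4.69e-05). ACAT2 had the largest log2 fall of the list (-0.98), but 69.6% of its exon bases overlap other genes and the libraries do not record strand, so its reads and theirs cannot be told apart. The members not called were CYP51A1, SREBF1, SREBF2, FADS1 and ACACA, named because they complete the count. The sterol regulatory element TCACNCCAC, searched on both strands, was in a promoter of 1 of 21 matched genes, SREBF2. Counted by single promoter, 0.883% of all promoters held it.

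In the glycolysis and hypoxia list, 15 of 29 tested genes fell (51.7%, against 7.91% of all genes) and none rose (median -0.49). Without CTRL day 8 replicate 1, 9 fell. PKM, ENO1, TPI1 and PGAM1, enzymes of glycolysis, fell by 0.67, 0.56, 0.65 and 0.68 on the log2 scale. GAPDH and ENO2, named after their values were seen, were among the members not called (log2 -0.26 and 0.04). TPI1 (chr12:6867119-6870948), triose phosphate isomerase, stood at 1177, 1101 and 1090 CPM at day 6 and at 668, 760 and 700 CPM at day 8 (SE 0.0860, adjusted p = 9.12e-05). PFKFB4, which sets the level of a glycolysis activator, fell from 92.7, 104 and 76.0 CPM to 41.4, 58.7 and 43.6 CPM (log2 -0.91, SE 0.140). BNIP3, a mitophagy receptor induced in low oxygen, fell from 153, 208 and 151 CPM to 82.1, 119 and 91.4 CPM (log2 -0.80, adjusted p = 0.00439), but not without CTRL day 6 replicate 1 (adjusted p = 0.0658). In PFKFB4 and BNIP3 replicate 2 was the highest library of both days. GPI, the second enzyme of glycolysis, was not called (log2 -0.29, adjusted p = 0.0689), with CTRL day 8 replicate 2 (301 CPM) inside the day 6 range of 299 to 346 CPM. The core of the hypoxia response element, ACGTG, was in at least 1 promoter of 16 of 26 matched genes. Counted by single promoter, it was in 6496 of 35093 (18.5%). It was found for 8 of 15 genes that fell and for 8 of 11 of the others. The promoters of BNIP3 (chr10:131981924-131982173, minus strand) and TPI1 (chr12:6867855-6868104, plus strand) are shown for the hypoxia and the glycolysis side of the list, with matches in capitals.
BNIP3: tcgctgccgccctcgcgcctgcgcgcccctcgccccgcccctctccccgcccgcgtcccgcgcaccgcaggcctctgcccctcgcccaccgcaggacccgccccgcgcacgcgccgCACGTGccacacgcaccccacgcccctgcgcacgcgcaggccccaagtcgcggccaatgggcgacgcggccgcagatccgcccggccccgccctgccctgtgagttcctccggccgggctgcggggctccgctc
TPI1: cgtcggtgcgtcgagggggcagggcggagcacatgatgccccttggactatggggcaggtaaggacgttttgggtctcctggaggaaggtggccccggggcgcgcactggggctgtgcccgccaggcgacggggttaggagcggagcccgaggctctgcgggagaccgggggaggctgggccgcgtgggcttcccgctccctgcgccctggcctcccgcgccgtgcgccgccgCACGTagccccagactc
In BNIP3 the match reads on both strands, beginning 134 and 133 bases before the start, and in TPI1 it begins 17 bases before the start on the opposite strand.

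Smooth muscle genes split by gene. DES (chr2:219418377-219426739), the intermediate filament desmin of muscle, stood at 7.17, 6.52 and 7.59 CPM at day 6 and at 34.6, 51.5 and 45.8 CPM at day 8, a 6.25-fold rise (log2 2.64, SE 0.145, adjusted p = 2.16e-08). ACTG2, CNN1 and LMOD1, actin and actin-binding proteins of smooth muscle, rose by 1.54, 1.03 and 0.70. These 4 of the 12 tested genes (33.3%, against 8.67% of all genes) stayed called when any 1 library was left out. ACTA2, smooth muscle alpha-actin, fell from 82.9, 61.0 and 76.3 CPM to 49.9, 54.2 and 64.3 CPM, with overlapping groups (log2 -0.37, adjusted p = 0.0454). The 3 falls of the list (25%, against 7.91%) were all lost without CTRL day 6 replicate 3 or without CTRL day 8 replicate 2. TAGLN stood at 68.5 to 97.8 CPM and then 79.6 to 108 CPM (adjusted p = 0.332). The defining skeletal muscle factors MYOD1 and MYF5 had 0 counts in all 6 libraries. Of 13 cardiac muscle genes tested, 4 fell (30.8%, against 7.91% of all genes) and 1 rose (7.69%, against 8.67%). The light chain MYL4 stood at 17.7, 22.7 and 20.9 CPM and then 8.90, 10.9 and 10.2 CPM (log2 -1.02, SE 0.134). TNNC1 was lower by 0.87.

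Among 25 matrix genes tested, 6 rose (24%, against 8.67% of all genes) and 3 fell (12%, against 7.91%). The median log2 fold change was 0.04, and 1 fell without CTRL day 8 replicate 2. DCN, the collagen-binding proteoglycan decorin, stood at 93.0, 64.8 and 111 CPM at day 6 and at 275, 225 and 355 CPM at day 8 (log2 1.68, SE 0.247, adjusted p = 0.00586), and was not called without CTRL day 6 replicate 1 (adjusted p = 0.0621). POSTN, periostin, rose from 130, 160 and 175 CPM to 391, 305 and 356 CPM (log2 1.19, SE 0.115), and TGFBI, a matrix protein induced by TGF-beta, from 111, 88.1 and 118 CPM to 216, 219 and 251 CPM (log2 1.13, SE 0.110). SPARC, a matrix glycoprotein, rose by 0.52. Among the fibrillar collagens, COL5A2 rose from 438, 386 and 483 CPM to 651, 546 and 678 CPM (log2 0.53, SE 0.104). COL3A1 had the largest gain in CPM among the named genes, from 6725, 5132 and 7005 CPM to 8101, 7129 and 8580 CPM (log2 0.35, adjusted p = 0.0434), and lost its call without CTRL day 6 replicate 1, CTRL day 6 replicate 2, CTRL day 8 replicate 1 or CTRL day 8 replicate 3 (adjusted p = 0.0634 to 0.201). COL1A1 and COL1A2, at 3311 to 5730 and 2362 to 3576 CPM over the 6 libraries, were not called (adjusted p = 0.110 and 0.890). GPC3, a cell surface proteoglycan, had one of the largest gains in CPM, from 1047, 791 and 1044 CPM to 1767, 1616 and 1891 CPM (log2 0.88, SE 0.109), as did MYRF, a membrane-bound transcription factor of the coelomic lining and of oligodendrocytes (496 ± 87.7 to 973 ± 49.8 CPM, log2 0.98).

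Of 28 ligands and receptors of BMP, activin and TGF-beta tested, 8 rose (28.6%, against 8.67% of all genes) and 1 fell (3.57%, against 7.91%), with a median log2 fold change of 0.19. TGFB3 stood at 1.88, 3.46 and 2.93 CPM and then at 10.5, 13.6 and 8.61 CPM (log2 1.99, SE 0.224, adjusted p = 2.21e-05). NODAL, the ligand of mesendoderm and left-right patterning, rose from 0.333, 0.692 and 0.409 CPM to 2.18, 1.59 and 1.61 CPM (log2 1.91, SE 0.354), although 41.9% of its exon bases overlap another gene. The receptors BMPR2 and TGFBR2 rose by 0.59 and 0.57. Of their 19 tested targets 4 rose (21.1%, against 8.67% of all genes) and 5 fell (26.3%, against 7.91%). The target ID1 was not called (adjusted p = 0.711). BMPER, a BMP-binding protein, fell from 14.8, 13.1 and 20.4 CPM to 7.61, 6.23 and 7.81 CPM (log2 -1.14, SE 0.169). Of 26 FGF and PDGF genes tested, 6 rose (23.1%, against 8.67% of all genes) and 4 fell (15.4%, against 7.91%). Without CTRL day 8 replicate 1 only 1 of them fell. PDGFB rose from 3.21, 2.32 and 2.07 CPM to 6.66, 9.77 and 10.1 CPM (log2 1.82, SE 0.219), PDGFC by 1.07 and FGF18 by 1.47. IGFBP5, a binding protein that tunes insulin-like growth factors, rose from 154, 148 and 126 CPM to 388, 555 and 514 CPM (log2 1.78, SE 0.126, adjusted p = 4.84e-07), and IGFBP3 by 1.00. IGF2 itself was not called (log2 -0.35, adjusted p = 0.0884), and 75.0% of its exon bases overlap other genes. HBEGF, a ligand of the EGF receptor, rose from 2.57, 1.92 and 1.73 CPM to 9.41, 14.1 and 14.0 CPM (log2 2.61, SE 0.211, adjusted p = 7.40e-07).

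HOX genes, which set position along the body axis, were tested for 24 of 39 (median 0.46). Rises numbered 7 (29.2%, against 8.67% of all genes) and falls 2 (8.33%, against 7.91%). In 1 fit over all 33 libraries 1 rose (HOXC4) and 0 fell. HOXC4 rose from 11.9, 11.9 and 13.2 CPM to 31.5, 25.9 and 29.3 CPM (log2 1.25, SE 0.118, adjusted p = 4.34e-06), and HOXC5, HOXA4, HOXC6 and HOXA3 by 1.75, 1.17, 1.06 and 0.62. Of their exon bases, 59.9% in HOXC5, 45.5% in HOXA4, 21.3% in HOXC4 and 14.9% in HOXC6 overlap other genes, so the reads of these genes and their neighbours cannot be fully told apart. HOXB1, expressed in the hindbrain and early mesoderm, fell from 248, 189 and 184 CPM to 121, 104 and 125 CPM (log2 -0.82, SE 0.118). HOXA2 was not called (adjusted p = 0.699). Of 20 retinoic acid genes tested, 3 rose (15%, against 8.67% of all genes) and 5 fell (25%, against 7.91%). The falls numbered 3 without CTRL day 6 replicate 1 or CTRL day 6 replicate 3. The degrading enzyme CYP26A1 fell from 15.1, 9.26 and 12.0 CPM to 5.57, 4.57 and 5.30 CPM (log2 -1.22, SE 0.184), its relative CYP26B1 rose from 2.39 to 2.81 CPM up to 5.10 to 5.96 CPM (log2 1.09), and ALDH1A2, which makes retinoic acid, stood at 46.3 to 50.2 and then 40.0 to 52.4 CPM (adjusted p = 0.785). Among 22 genes of the amino acid and integrated stress response, 8 rose (36.4%, against 8.67% of all genes). In that list 2 fell (9.09%, close to the 7.91% of all genes). The rises numbered 3 without CTRL day 8 replicate 3. TRIB3, a pseudokinase of that response, stood at 11.1, 11.3 and 8.29 CPM and then at 24.5, 34.6 and 41.6 CPM (log2 1.73, SE 0.184), and SLC7A11, the cystine importer, rose by 1.27. DDIT4, an mTORC1 inhibitor also induced by low oxygen, fell by 0.94, while ATF4 and DDIT3 were not called (adjusted p = 0.928 and 0.378). DUSP1, a phosphatase of the immediate early list, rose from 19.1, 15.2 and 18.8 CPM to 28.96, 36.7 and 36.7 CPM (log2 0.96, SE 0.127).

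Markers of other cell types were checked as well. The leukocyte marker PTPRC had 0 counts in all 6 libraries, and 11 of 15 blood genes were too low to test. KLF1, an erythroid factor, fell from 1.54, 1.97 and 1.54 CPM to 0.466, 0.505 and 0.749 CPM (log2 -1.54, adjusted p = 0.00464). Of 18 endothelial genes, all tested, 3 rose (16.7%, against 8.67% of all genes) and 1 fell (5.56%, against 7.91%), with a median log2 fold change of 0.03 and 9 fitted values on each side of 0. The rises were led by EMCN from 0.216 to 0.718 CPM up to 1.15 to 2.18 CPM (log2 2.03) and PECAM1 (log2 1.36). TAL1, a factor of blood and endothelial precursors, fell from 4.02, 4.90 and 3.39 CPM to 1.91, 2.60 and 1.61 CPM (log2 -0.99, adjusted p = 0.0101), but not without CTRL day 8 replicate 1 or CTRL day 8 replicate 3 (adjusted p = 0.0608 to 0.0616). CDH5 stood at 11.7 to 17.8 and then 14.7 to 21.9 CPM (adjusted p = 0.649). Of the 17 endoderm and liver genes, all tested, CXCR4 fell (log2 -0.63, adjusted p = 0.00805) and none rose, with 15 fitted values below 0 and a median of -0.48. CXCR4 was not called without CTRL day 8 replicate 3 (adjusted p = 0.063), and 8 of the list fell without CTRL day 8 replicate 2. With replicate number added to the fit 12 fell, although the labels do not say that the numbers pair libraries. In 1 fit over all 33 libraries 0 fell. AFP, the fetal liver protein, stood at 18.7, 58.4 and 31.4 CPM at day 6 and at 10.3, 31.0 and 11.8 CPM at day 8, with replicate 2 the highest on both days and overlapping groups. The list summed to 475 to 726 CPM at day 6 and 364 to 600 CPM at day 8.

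The course of the control cells places the step between its neighbours; since neighbouring steps share libraries, these are levels only. At day 4 TBX18 stood at 0.364, 0.104 and 0 CPM, and WT1 lay below the floor in all 3 libraries. On average they went through 16.6 and 24.2 CPM at day 6 and 68.5 and 81.0 CPM at day 8 to 123 and 134 CPM at day 10. At day 14 they stood at 130 and 144 CPM. RSPO1 had 39.2 CPM at day 10 and 34.1 CPM at day 14, against 20.2 CPM at day 8. LHX9 kept increasing in mean level, from 0.568 CPM at day 8 to 7.19 CPM at day 14. STMN2 had 29.9 CPM at day 4, 1.66 CPM at day 6, 7.05 CPM at day 8 and 233 CPM at day 14, so day 6 was its lowest day. APLNR stood at 152, 68.2, 14.6 and 8.23 CPM from day 4 to day 10. HMGCS1 had 234 CPM at day 6, 155 CPM at day 8 and 152 to 167 CPM from day 10 to day 14. INSIG1 had 83.7 CPM at day 6, 49.2 CPM at day 8 and 45.5 to 50.7 CPM later. MCM3 differed from these lipid genes, with 226 CPM at day 8, 178 CPM at day 10 and 146 CPM at day 12.

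**Figure D3:**
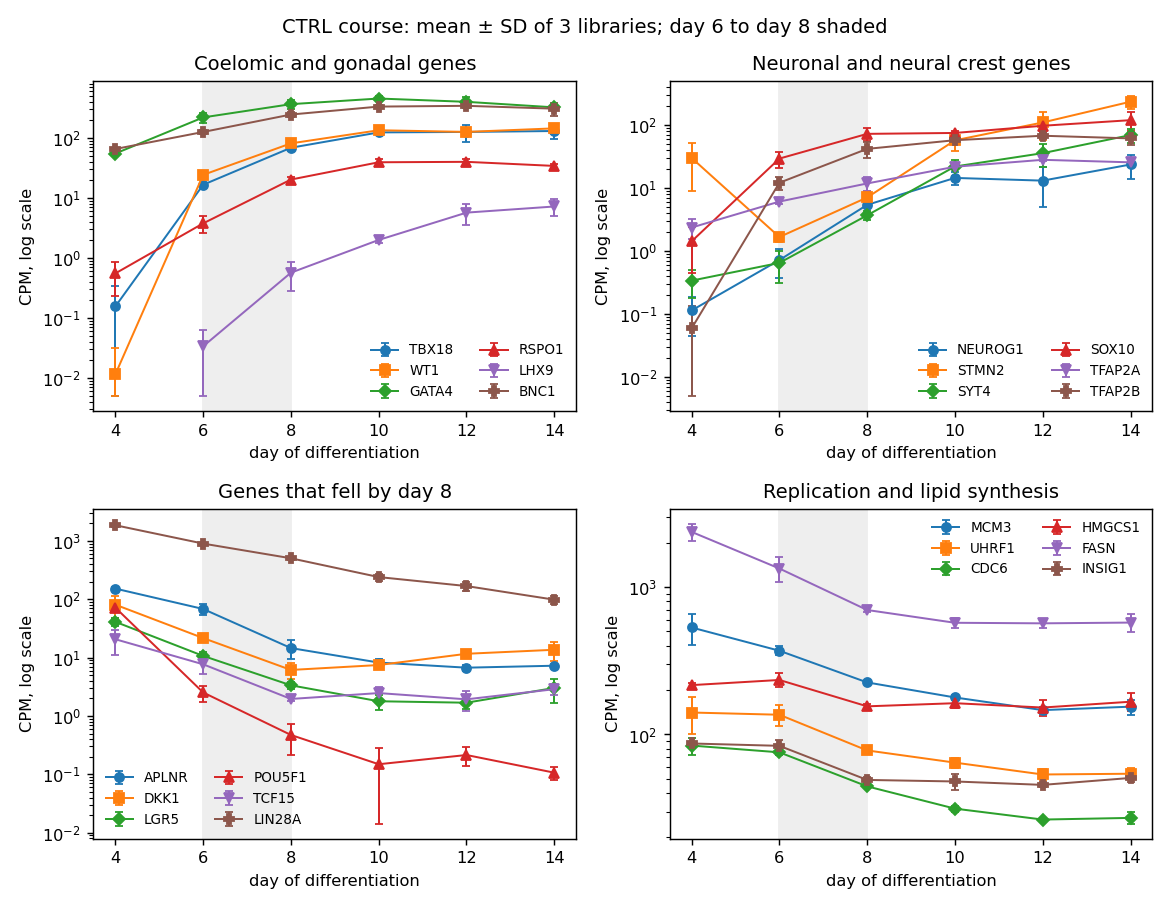
Mean CPM (y axis, log scale) of CTRL by day of differentiation (x axis), with day 4 as the shared start; bars are the SD of 3 libraries and day 6 to day 8 is shaded. A mean of 0 (LHX9 at day 4) is not drawn, means under the floor (WT1 at day 4) are drawn but not read, and lower bars that would reach 0 are cut short. WT1 and TBX18 increase from day 4 to day 10 and then level out, while HMGCS1 and INSIG1 at day 8 stand within or near their range from day 10 to day 14.

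Whether induction changed this step was tested as the interaction of day and induction over the 12 libraries of both arms, that is the step in IND minus the step in CTRL. Of 20507 genes tested, 69 differed (0.336%), 35 with a higher step in IND (0.171%) and 34 with a lower one (0.166%), and 2178 had an unadjusted p under 0.05. The count was 254 without IND day 8 replicate 3, 104 without IND day 6 replicate 3, 45 without IND day 6 replicate 2, and 44 without CTRL day 8 replicate 3 or IND day 8 replicate 2. Among the genes above that rose most in CTRL, NELL1, ARHGAP22, HBEGF and IL6R rose less under induction. NELL1 stood at 0.241, 0.283 and 0.181 CPM at day 6 and 0.385, 0.911 and 1.18 CPM at day 8 in IND, and its step was smaller by 3.29 on the log2 scale (SE 0.523, adjusted p = 0.00385). HBEGF stood in IND at 1.53, 1.86 and 1.75 CPM and then at 1.88, 1.85 and 2.38 CPM, against 9.41 to 14.1 CPM in CTRL at day 8 (difference of steps -2.37, adjusted p = 0.000845). ARHGAP22 stood at 5.17 to 6.34 CPM and then 5.99 to 9.74 CPM in IND (difference -2.60, adjusted p = 0.000845). For these 3 genes every IND library at day 8 lay below every CTRL library at day 8.

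FIBIN, a secreted protein of limb and fin buds, fell in CTRL from 11.9, 12.3 and 11.2 CPM to 4.15, 5.32 and 4.81 CPM (log2 -1.30, SE 0.156, adjusted p = 3.88e-05). In IND it stood at 11.5, 11.7 and 15.0 CPM and then at 42.7, 46.7 and 36.4 CPM, so the steps went in opposite directions (difference 3.00, adjusted p = 8.24e-08). SST, the hormone somatostatin, stood at 6.02 to 10.7 and then 7.57 to 8.06 CPM in CTRL and was not called there (adjusted p = 0.933), while in IND it stood at 4.15, 6.60 and 7.64 CPM and then at 40.7, 50.9 and 54.6 CPM (difference 3.01, adjusted p = 0.000845). FZD7, a WNT receptor, fell in CTRL from 361, 350 and 318 CPM to 240, 272 and 252 CPM (log2 -0.42), against 335 to 361 CPM and then 409 to 477 CPM in IND (difference 0.79, adjusted p = 0.00298). UCP2 fell in CTRL by 1.65 and its IND step was smaller by 0.85 in size (adjusted p = 0.0124), a difference not called without IND day 8 replicate 2 (adjusted p = 0.0526). The interaction was not called for TBX18 (-0.72, adjusted p = 0.290), WT1 (-1.09, adjusted p = 0.379), RSPO1 (-0.12, adjusted p = 0.914) or MCM3 (0.30, adjusted p = 0.374), which does not show that these steps were equal.

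**Figure D4:**
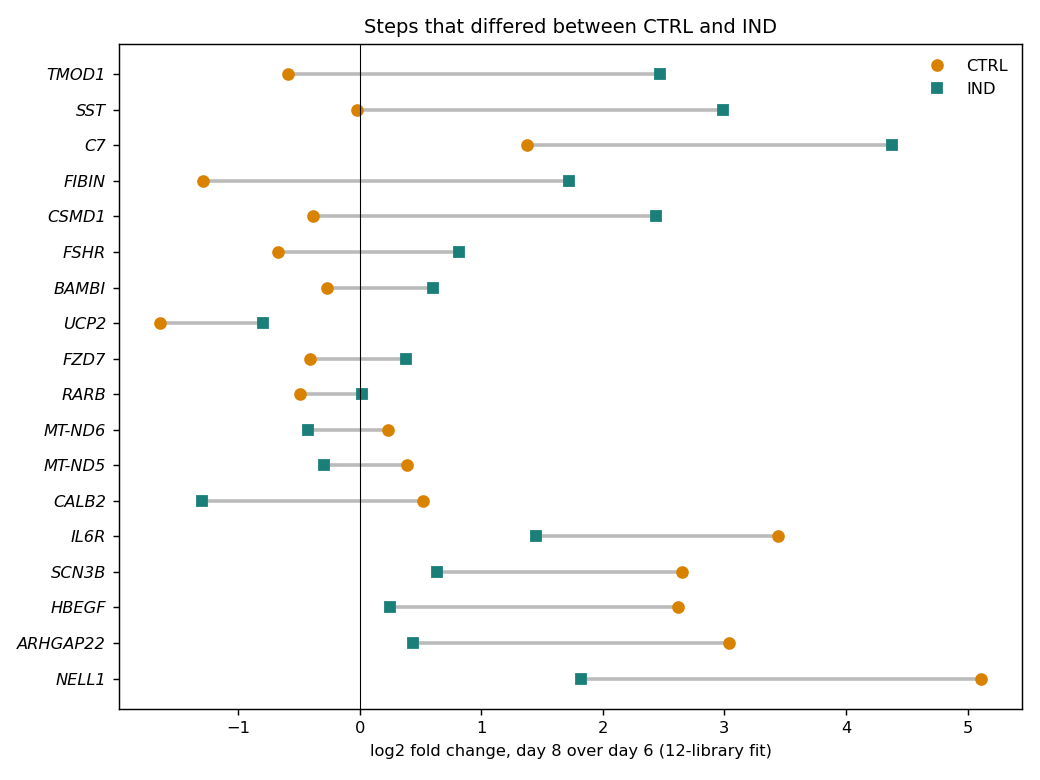
Log2 fold change of day 8 over day 6 (x axis) in CTRL (circles) and IND (squares), from the fit over 12 libraries, for the 18 genes whose steps differed among those named or in a list (y axis). The CTRL step is larger than the IND step for NELL1 (5.11 against 1.82) and smaller for FIBIN (-1.28 against 1.72).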

How the data were processed

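RNA was sequenced as non-directional libraries, 3 per group. The deposited count table holds whole-number read counts per gene, made by the authors with fastp 0.23.2, HISAT2 2.0.5 against GRCh38 and featureCounts 1.5.0-p3, per the submitters' processing notes. The deposited FPKM columns, which the authors scaled to gene length and library depth, entered no main test. They were used, as log2 values, only for the alternative fits with limma.

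Genes were tested with edgeR 4.0.16 in R 4.3.3 on the deposited counts, with the filterByExpr filter, TMM scaling, glmQLFit and glmQLFTest, and Benjamini-Hochberg adjustment over all genes tested (threshold 0.05). The 6 CTRL libraries of day 6 and day 8 entered the main fit and 12 libraries the interaction. limma 3.58.1 and DESeq2 1.42.0 served as alternatives. Named genes were the 12 called genes each way that changed most on the log2 scale without overlapping libraries (minimum average log2 CPM 1), the 6 largest CPM differences each way, the first 2 symbols of each of 40 lists with up to 6 called members of largest change, the 5 largest interactions each way, and FOXL2 with its neighbours. Genes and lists were chosen with earlier results of these data known, and others singled out are said to be so. Genes with at most 3 counts in every library of a day are given as count ratios with exact 95% intervals. Motifs were searched in RefSeq promoters. In data simulated for the main comparison (18808 genes), 174 of 200 changed genes were recovered, 77 of 100 at a log2 change of 1 and 97 of 100 at 2, with 11 false calls among 185. For the interaction (20056 genes) 149 of 200 were recovered, with 4 false calls among 153. No pair of libraries was identical within sampling noise. Some members of the lists enter the counts but are not reported here by name.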

Additional observations from a re-analysis of the deposited data

Results flagged for a closer look

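The step from day 6 to day 8 differed between IND and CTRL, by the interaction test of edgeR, for 18 of the genes named or in a list. Each value is the IND step minus the CTRL step on the log2 scale.

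Steps were higher in IND for TMOD1 (3.06), SST (3.01), C7 (3.00), FIBIN (3.00), CSMD1 (2.82), FSHR (1.49), BAMBI (0.87), UCP2 (0.85), FZD7 (0.79) and RARB (0.50). C7, a complement component, stood in IND at 1.02, 1.11 and 0.975 CPM at day 6 and at 18.2, 29.2 and 17.3 CPM at day 8. BAMBI, a decoy receptor of TGF-beta signalling, stood in CTRL at 196, 194 and 195 CPM and then 148, 168 and 162 CPM, and in IND at 128, 134 and 130 CPM and then 198, 207 and 192 CPM. TMOD1, an actin-capping protein, shares 44.9% of its exon bases with another gene.

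Steps were lower in IND for NELL1 (-3.29), ARHGAP22 (-2.60), HBEGF (-2.37), SCN3B (-2.01), IL6R (-1.99), CALB2 (-1.81), MT-ND5 (-0.69) and MT-ND6 (-0.66). The summed mitochondrial share of counts was 3.20% to 3.28% in CTRL and 1.99% to 2.53% in IND at day 8, and its part in the last 2 values was not tested. Nuclear copies can share reads with both.

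Calls were kept in all alternatives run for ARHGAP22, BAMBI, C7, FIBIN, FZD7, HBEGF, NELL1, SST and TMOD1. CALB2, CSMD1 and IL6R are not among the genes kept in all alternatives. The call was lost when some single libraries were left out for FSHR (8 of 12 libraries, adjusted p = 0.0594 to 0.149), RARB (10 of 12, 0.0604 to 0.173), MT-ND5 and MT-ND6 (9 of 12 each), SCN3B (4 of 12, 0.0519 to 0.0619) and UCP2 (IND day 8 replicate 2, 0.0526).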

How the results depend on the processing

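The count of genes called between the days (3176) was 1659 to 3727 when 1 library was left out, lowest without CTRL day 8 replicate 1 and without CTRL day 8 replicate 3. It was 1435 in 1 fit over all 33 libraries and 741 where a log2 fold change of at least 1 was also asked. The genes that rose (1661) then numbered 973 to 1917, 858 and 592, and those that fell (1515) 637 to 1810, 577 and 149. The share that rose was 52.3% of calls and 79.9% with the fold threshold. DESeq2 called 3511 genes, of which 3125 were shared. The interaction count (69) was 44 to 254 when 1 library was left out, 279 with DESeq2, 529 with no filter on low counts and 33 in the fit over 33 libraries. The causes were not tested.

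Replicate numbers were not taken to pair the libraries, since nothing in the labels says so and deviations of same-numbered CTRL libraries correlated at -0.08, 0.30 and 0.08. Replicate 2 correlated best with its own number and the others did not. With a replicate block 3669 genes were called (1966 rose, 1703 fell), and 58 in the interaction. Under the block 12 endoderm and liver genes fell, against 1 without it. Likewise 13 HOX genes rose, against 7, and 9 WNT ligands, receptors and antagonists rose, against 4. In 1 fit over all 33 libraries these counts were lower, at 0, 1 and 1. Of 257 named genes tested, 210 were called, 114 of them in every alternative run. None of the 210 called genes changed sign in an alternative.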

Other observations

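Replicate 2 was the highest library on both days for several endoderm genes, chosen after their values were seen. FOXA1, a pioneer factor of endoderm, stood at 26.6, 61.2 and 27.6 CPM at day 6 and at 19.9, 51.6 and 17.2 CPM at day 8. SHH, a hedgehog ligand of gut and notochord, stood at 4.20, 9.10 and 4.93 CPM and then at 5.70, 22.7 and 6.42 CPM. IHH, its relative, stood at 20.1, 33.2 and 14.0 CPM and then at 7.81, 23.4 and 9.17 CPM. Replicate numbers are not known to link libraries across days.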
